A study of Mus musculus with 2 samples.

Results

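The miR-15/16 seed family was examined together with its X-linked relatives miR-322 and miR-503 in cultures of myeloid-derived suppressor cells (MDSCs), a mixed class of immature myeloid cells able to dampen T cell responses. Members were the 8 named mature miRNAs of the family found on a single-colour Agilent mouse miRNA array, out of 1080 miRNA names measured: mmu-miR-15a-5p, mmu-miR-15b-5p, mmu-miR-16-5p, mmu-miR-195a-5p, mmu-miR-322-5p, mmu-miR-322-3p, mmu-miR-497a-5p and mmu-miR-503-5p, written below without the species prefix. The array lists miR-195a-5p and miR-497a-5p under older names without the letter a. They were chosen by name and not by any measured value, though with earlier results of these data known. The cells came from bone marrow of C57BL/6 mice, cultured for 4 days in medium with 5% FBS. One culture, called GM-CSF only, held the myeloid growth factor GM-CSF at 40 ng/ml. The other, called GM-CSF plus IL-6, held GM-CSF at 40 ng/ml and the inflammatory cytokine IL-6 at 40 ng/ml. Each condition had 1 array, so no difference between the cultures could be tested, no p-value is given, and the errors are standard errors (SE) over replicate spots of 1 array. The sources used here do not give the number of mice.

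A miRNA finds its targets mainly through its seed, the short stretch near its 5′ end that pairs with messenger RNA. The miR-15/16 family is known for lowering cyclins, and thereby for restraining the cell cycle, and for lowering the anti-apoptotic protein BCL2. miR-15a and miR-16-1 lie in Dleu2, a locus often lost in human chronic lymphocytic leukaemia, while miR-322 and miR-503, which also restrain cell-cycle genes, are transcribed together from the X chromosome.

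The mature sequences of all 8 members are shown because the seed defines the family. They are RefSeq sequences (GRCm38.p6), matched by name for 8 of 8 members, written 5′ to 3′ with the seed, bases 2 to 8, in capitals.
mmu-miR-15a-5p: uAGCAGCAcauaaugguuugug
mmu-miR-15b-5p: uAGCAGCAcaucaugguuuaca
mmu-miR-16-5p: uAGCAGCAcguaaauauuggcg
mmu-miR-195a-5p: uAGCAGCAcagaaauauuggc
mmu-miR-322-5p: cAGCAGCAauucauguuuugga
mmu-miR-497a-5p: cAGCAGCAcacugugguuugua
mmu-miR-503-5p: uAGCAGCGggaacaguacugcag
mmu-miR-322-3p: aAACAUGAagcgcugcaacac

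The first 6 sequences have one seed. miR-503-5p departs from it by A8G, with miR-16-5p as the reference and positions counted from 1 at the 5′ end. The seed of miR-322-3p, the other arm of the miR-322 hairpin, is unrelated. Of 1679 mature mouse miRNA names in the RefSeq table, 10 carry the common seed, 6 of them members. The other 4 (miR-195b, miR-6342, miR-6353 and miR-6419) were not analysed here. Downstream of the seed the members diverge. Counted from the 5′ end with no gaps, miR-195a-5p equals miR-16-5p at 19 of 21 positions and differs by G10A and U11G, miR-15a-5p is equal at 16 of 22, miR-15b-5p at 14 of 22, and miR-497a-5p at 11 of 22.

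In GRCm38.p6 the members come from 4 places. miR-15a-5p (chr14:61632075-61632096, minus strand) and a copy of miR-16-5p (chr14:61631936-61631957, minus strand) lie inside the span of the long non-coding RNA gene Dleu2. miR-15b-5p (chr3:69009775-69009796, plus strand) and the second, identical copy of miR-16-5p (chr3:69009918-69009939, plus strand) lie inside the span of Smc4, which encodes a condensin subunit. miR-497a-5p (chr11:70234730-70234751) and miR-195a-5p (chr11:70235062-70235082) are neighbours on the plus strand, outside other annotated genes in that table. miR-503-5p (chrX:53054027-53054049), miR-322-3p (chrX:53054269-53054289) and miR-322-5p (chrX:53054306-53054327) lie on the minus strand of the X chromosome within the span of C430049B03Rik. Exon and intron positions were not used here.

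Which of the family the cultures contained was read from detection, the scanner software's flag, which rests on probes whose total exceeds 3 times their deposited error. The same 5 members were detected on both arrays: miR-15a-5p, miR-15b-5p, miR-16-5p, miR-322-5p and miR-503-5p. The 3 others, miR-195a-5p, miR-497a-5p and miR-322-3p, were detected on neither. Detection of 5 of 8 stands beside 27% of all 1080 names detected on both arrays, 28.5% with IL-6 and 27.9% with GM-CSF only. Every member was measured on 40 spots per array, split over 2 probes, or 4 for miR-322-3p.

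**Figure D1:**
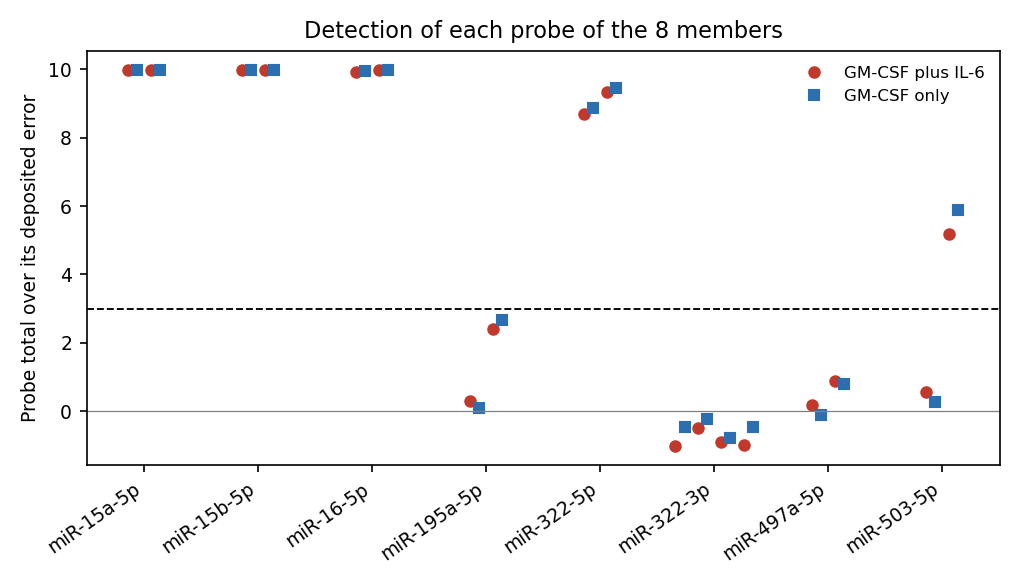
Each point is a probe of one of the 8 members, the vertical axis is its total signal over its deposited error, red circles are GM-CSF plus IL-6, blue squares GM-CSF only, and the dashed line marks 3 errors. Both probes of miR-15a-5p, miR-15b-5p, miR-16-5p and miR-322-5p lie above the line, 1 of the 2 probes of miR-503-5p does, and no probe of miR-195a-5p, miR-322-3p or miR-497a-5p does.

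The members from the Dleu2 and Smc4 loci were detected on every probe and spot in both cultures. Level here means the total probe signal, as deposited, summed over a miRNA's probes, an intensity with no scaling between arrays. Signals of different probes are not on a common scale of molecules, so levels are compared between cultures and not between members. miR-15b-5p had 1379 ± 10.2 (spot SE) with GM-CSF plus IL-6 and 1537 ± 7.04 with GM-CSF only. miR-16-5p had 747 ± 5.70 and 822 ± 8.85, the sum over its 2 gene copies, which the probes cannot separate. Both miRNAs had all 40 spots well above background on each array and were somewhat dimmer on the IL-6 array. The signals of miR-15a-5p were 564 ± 4.12 with IL-6 and 635 ± 4.11 without it, again with 40 of 40 spots well above background.

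Of the X-linked members, miR-322-5p was detected on both of its probes and miR-503-5p on 1. miR-322-5p, whose human counterpart is miR-424, had 74.7 ± 1.1 with IL-6 and 81.5 ± 0.915 without it, with all 40 spots well above background on both arrays. miR-503-5p had 11.0 ± 0.479 and 12.6 ± 0.445. Its detection rests on 1 probe, at 10.09 and 12.1, or 5.18 and 5.89 times its error, with 18 and 20 of 20 spots well above background. The second probe, at 0.918 and 0.453, had 0 such spots on either array. When detection required 50% or more of all spots to be well above background on both arrays, 4 members remained and miR-503-5p dropped out.

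The undetected members differed in how near they came. miR-195a-5p summed to 4.63 with IL-6 and to 4.75 without it. One of its probes reached 2.41 and 2.67 times its error, just under the limit, and 0 of its 40 spots were well above background. On the same arrays miR-16-5p, equal to it at 19 of 21 positions, had 40 of 40 spots well above background. miR-497a-5p had 1.78 and 1.13, and miR-322-3p had -2.84 and -1.64, where a negative value means below the subtracted background. For these 3 no ratio between cultures is given.

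**Figure D2:**
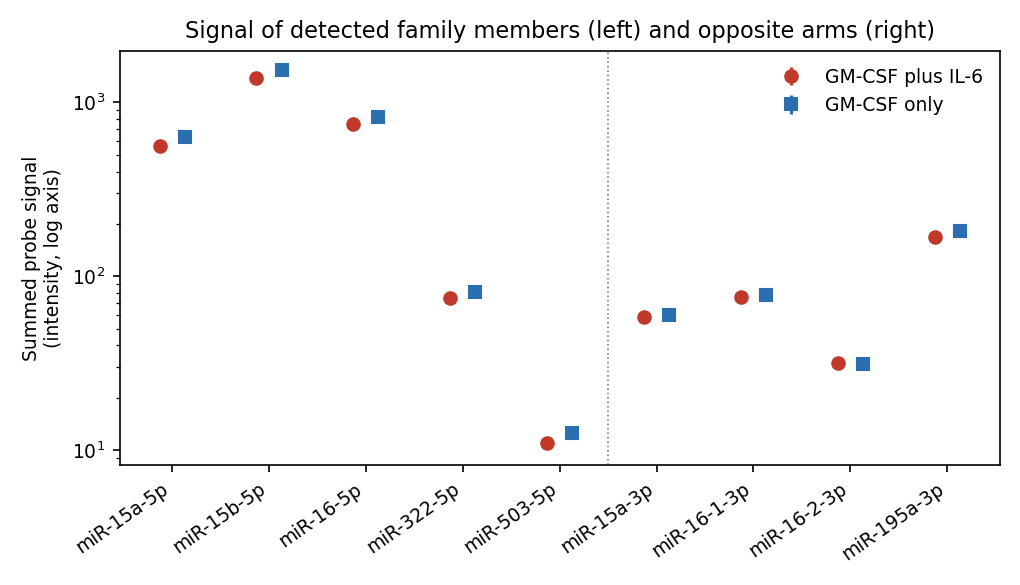
Points are summed probe signals (intensity, log axis) with spot standard errors, mostly smaller than the symbols, for the 5 detected members left of the dotted line and the 4 detected opposite arms right of it. Red circles are GM-CSF plus IL-6 and blue squares GM-CSF only. Each of the 5 members is slightly lower on the IL-6 array before scaling. Values run from 1379 against 1537 for miR-15b-5p to 11.0 against 12.6 for miR-503-5p. Scaling by the 75th percentile turns that order for every detected member except miR-503-5p.

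The cultures were compared to see how these miRNAs differed when IL-6 was added to GM-CSF. Of the 5 detected members, 0 differed by 2-fold or by 1.5-fold in either direction, on the relative scale defined next, and 0 passed a still smaller limit of 0.32 on the log2 scale. Among all 292 miRNAs detected on both arrays, 1.03% were at least 2-fold higher and 0% at least 2-fold lower with IL-6. At 1.5-fold these shares were 3.42% and 0%, and at the log2 limit of 0.32 they were 12.3% and 0.685%. All 5 detected members shifted by a small and similar amount, and the sign of that shift depends on how the arrays are scaled.

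As deposited, the signal was lower with IL-6 for 5 of 5 members, with differences from -8.28% for miR-322-5p to -12.4% for miR-503-5p, while it was lower for 63.4% of all 292 miRNAs. Over paired spot positions the deposited signal was lower with IL-6 at 32 of 32 for miR-15b-5p, 37 of 39 for miR-16-5p and 35 of 38 for miR-15a-5p. For miR-322-5p it was lower at 30 of 39 and for miR-503-5p at 23 of 37. After division by the 75th percentile described next, the counts lower with IL-6 were 3 of 32, 14 of 39, 13 of 38, 13 of 39 and 20 of 37 in the same order of members. The 2 arrays also differed in general brightness, with a 75th percentile over the 292 miRNAs of 160 with IL-6 and 182 without it. Dividing by that percentile turned the sign for 4 members: log2 ratios of IL-6 over GM-CSF only became 0.01 for miR-15a-5p, 0.03 for miR-15b-5p, 0.04 for miR-16-5p and 0.06 for miR-322-5p. miR-503-5p stayed at -0.01. Other uniform scalings kept 5 of 5 members below 0, with a family median of -0.24 for the 75th percentile over all miRNAs, -0.18 for the median and -0.16 with no scaling, where the median of all 292 was -0.15, -0.09 and -0.06. On the 75th percentile scale over the 292 miRNAs, 19.5% were below 0 and the median was 0.12, so ratios are given from here relative to that median, which removes the choice among uniform scalings.

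On the relative scale all 5 members lay below the middle of the array, where by construction 50% of the 292 miRNAs lie. The relative log2 ratio was -0.11 ± 0.01 (spot SE) for miR-15a-5p, -0.09 ± 0.01 for miR-15b-5p, -0.07 ± 0.02 for miR-16-5p, -0.06 ± 0.03 for miR-322-5p and -0.13 ± 0.08 for miR-503-5p. The family median was -0.09, against 0 for all 292 and -0.02 for the 146 at or above the median level, of which 57.5% were below 0. The sign held for miR-15b-5p and miR-322-5p under every alternative tried, 13 of them other than uniform scalings. Quantile normalization took miR-15a-5p to 0.031, and loess took miR-16-5p to 0.0064 and the family median to -0.03. The value of miR-503-5p was above 0 under 5 of 15 alternatives, 12 of them other than uniform scalings. For miR-503-5p the odd spots alone gave 0.04 and the even spots -0.29. Spot errors do not include the spread between cultures, which 1 array per condition leaves unmeasured. The central 95% of all 292 miRNAs ran from -0.25 to 0.67 and the middle 50% from -0.09 to 0.16. Every member thus sat inside the central 95%, while miR-15a-5p and miR-503-5p lay below the middle 50%.

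**Figure D3:**
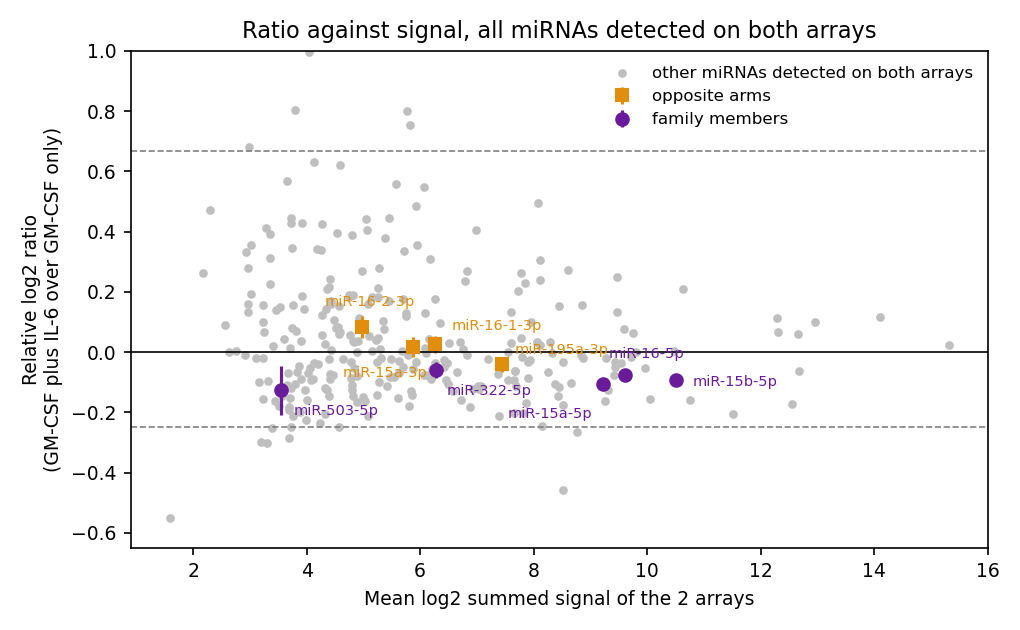
Grey points are the miRNAs detected on both arrays (292 in all, 3 of them above the top of the axis), with the mean log2 summed signal on the horizontal and the relative log2 ratio, IL-6 array over the other array, on the vertical axis. Purple circles are the 5 detected members and orange squares the 4 detected opposite arms, with spot standard errors, and dashed lines enclose the central 95% of all points. The members lie between -0.13 and -0.06, inside that range.

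The probes of the members gave like values. Of 18 member probes, 9 exceeded 3 errors on both arrays, and their relative log2 ratios ran from -0.20 to -0.06, with 9 of 9 below 0. These probes make up the member sums given above, on the same 2 arrays, so this count adds no separate support. The 2 probes of miR-16-5p stood at -0.11 and -0.06, those of miR-15b-5p at -0.08 and -0.10, those of miR-15a-5p at -0.09 and -0.12, and both of miR-322-5p at -0.06. The 1 detected probe of miR-503-5p gave -0.20, against -0.13 when both of its probes were summed. Single spot positions had a standard deviation within probes of 0.06 on the log2 scale for miR-15b-5p, 0.10 for miR-15a-5p and miR-16-5p, 0.16 for miR-322-5p and 0.24 for the detected probe of miR-503-5p. This scatter was below the shift for miR-15b-5p, about equal to it for miR-15a-5p and above it for the other 3.

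**Figure D4:**
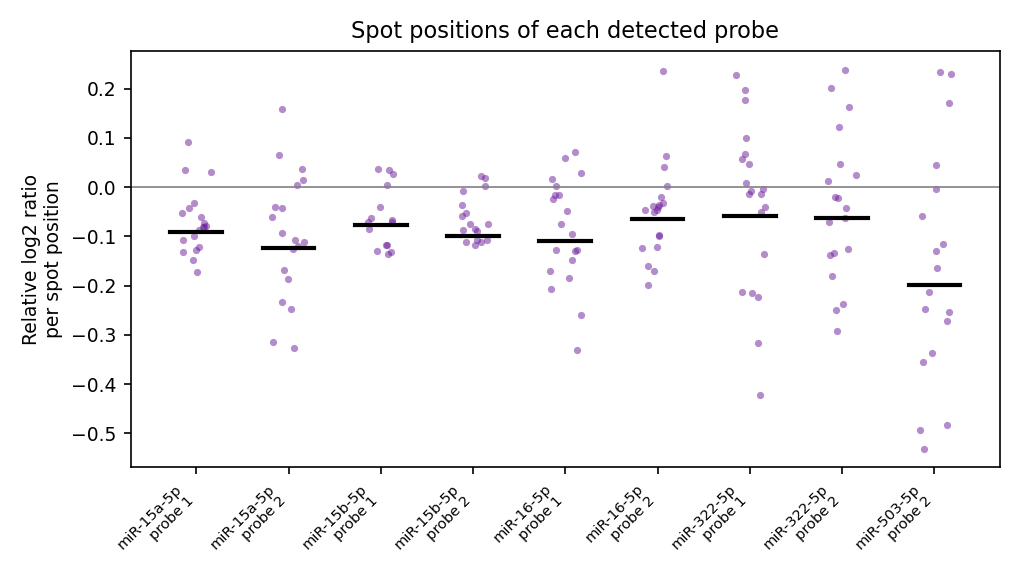
Each point is 1 spot position of a member probe that exceeded 3 errors on both arrays, plotted as its relative log2 ratio between the arrays, and black bars give the ratio of the probe totals. Bars run from -0.06 to -0.20, and points of the same probe lie on both sides of 0 for all 9 probes.

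The members kept nearly the same proportions in both cultures. As shares of the summed signal of the 5 detected members, miR-15b-5p held 49.7% with IL-6 and 49.8% without it, miR-16-5p 26.9% and 26.6%, and miR-15a-5p 20.3% and 20.6%. miR-322-5p held 2.69% and 2.64%, and miR-503-5p 0.397% and 0.407%. These are shares of signal and not of molecules. The 5 members together gave 2.04% of the detected signal of the IL-6 array and 2.20% of that of the GM-CSF only array.

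The other products of the same hairpins, from a list chosen for their position, gave a second reading only where they were detected. Each hairpin yields a 5p and a 3p strand, one of which is usually loaded into Argonaute while the other is degraded. The 3p arms detected on both arrays are shown, since their seeds differ from that of the family, and the arm of miR-195a was detected where its family member was not.
mmu-miR-15a-3p: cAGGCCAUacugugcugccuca
mmu-miR-16-1-3p: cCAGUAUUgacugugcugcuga
mmu-miR-16-2-3p: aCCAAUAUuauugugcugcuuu
mmu-miR-195a-3p: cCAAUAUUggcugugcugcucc

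Capitals again mark bases 2 to 8 of these RefSeq sequences. The array holds 7 opposite arms. In both cultures 4 of them were detected, beside 27% of all 1080 names. In neither culture were miR-15b-3p, miR-497a-3p and miR-503-3p detected. Both miR-16 loci left a detected 3p product: miR-16-1-3p, from Dleu2, had 75.7 ± 0.979 with IL-6 and 77.7 ± 1.13 without it, and miR-16-2-3p, from the Smc4 locus, had 31.6 ± 0.577 and 31.2 ± 0.584. miR-15a-3p had 58.0 ± 0.785 and 59.96 ± 1.11. For these 3 arms the cultures differed by less than for miR-15a-5p and miR-16-5p, in percent of the signal.

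miR-195a was the 1 hairpin of the family whose 3p strand was detected while its 5p strand, the family member, was not. miR-195a-3p had 168 ± 1.99 with IL-6 and 181 ± 2.26 without it, with 40 of 40 spots well above background on both arrays, beside 0 of 40 for miR-195a-5p. Its neighbour miR-497a gave no detected signal from either arm, at 1.78 and 1.13 for 5p and -0.734 and -0.00424 for 3p.

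Relative log2 ratios of the 4 detected arms were 0.02 ± 0.03 for miR-15a-3p, 0.03 ± 0.03 for miR-16-1-3p, 0.08 ± 0.04 for miR-16-2-3p and -0.04 ± 0.02 for miR-195a-3p, with a median of 0.02. All 4 lay above the highest detected member, miR-322-5p at -0.06, though miR-195a-3p and miR-322-5p differed by less than their spot errors. Within a hairpin the 5p arm minus the 3p arm was -0.12 ± 0.04 (log2, spot SE) for miR-15a. With miR-16-5p, which both loci share, the difference was -0.10 ± 0.03 against miR-16-1-3p and -0.16 ± 0.04 against miR-16-2-3p. After a loess fit of ratio on signal the 3 differences were -0.03, -0.02 and -0.02, and quantile normalization turned the first to 0.05. The part of signal level in these differences was not tested.

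No further member of the X-linked cluster of miR-322 and miR-503 was detected. The 9 array names that stand for miR-351, miR-542, miR-450a and miR-450b were undetected in both cultures, 9 of 9. Beside them, 763 of all 1080 names were detected on neither array. Their summed signals lay between -1.16 for miR-450a-1-3p with IL-6 and 2.73 for miR-351-3p with GM-CSF only. miR-322-3p, listed above, was likewise undetected.

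A pair of other broadly expressed seed families also had most of their names below the middle of the array, with medians nearer to 0 than the -0.09 of the miR-15/16 members. The let-7 family, which promotes differentiation, had 9 of 9 names detected on both arrays, 8 below and 1 above the middle of the array, with a median relative log2 ratio of -0.05 and a range from -0.10 to 0.02. Its lowest value was that of let-7e-5p, which had 1 of 40 spots well above background on each array. The miR-17 seed family, which promotes proliferation of blood progenitors, had 5 of 5 array names detected and 5 below, with a median of -0.02 and a range from -0.10 to -0.02. The ranges of both overlap that of the miR-15/16 members, and with 1 array per condition no difference between families was tested.

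By closeness of log2 signal over the 2 arrays, the nearest other miRNAs to miR-16-5p were let-7a-5p (distance 0.11) and miR-1937c_v16.0 (0.11). Those nearest to miR-15a-5p were miR-22-3p (0.05) and miR-3096b-3p (0.09), and to miR-15b-5p miR-142-3p (0.08) and miR-669n (0.27). For miR-322-5p they were miR-30c-5p (0.05) and miR-16-1-3p (0.07), and for miR-503-5p miR-126-3p (0.02) and miR-191-3p (0.08). With 2 arrays this likeness is mostly a likeness of brightness.

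The labelled cell type was checked against markers. Of the names listed as myeloid, 3 of 3 were detected in both cultures: miR-142-3p, miR-142-5p and miR-223-3p, the last abundant in granulocytes. Their signals summed to 7899 with IL-6 and 8535 without it. No other cell type was measured for comparison. Of the markers of other cell types, most erythroid and most stromal and muscle names were undetected, while lymphoid and epithelial markers were detected. Lack of signal was common on this platform, where 763 of the 1080 names gave no detection in either culture. The missing erythroid, stromal and muscle names alone therefore say little about which cells were present. Of 3 erythroid names on the array, miR-144-3p and miR-144-5p were undetected, and miR-451 had 8.10 and 10.4, a relative log2 ratio of -0.30 ± 0.11. Only 1 and 6 of the 40 spots of miR-451 were well above background. Of 9 stromal and muscle names, 8 were undetected, among them miR-143-3p and miR-145-5p. The muscle name miR-206-3p had 67.8 and 55.5 (relative log2 ratio 0.35 ± 0.03), with 40 of 40 spots well above background on both arrays. The lymphoid miR-150-5p had 54.2 and 62.6, a relative log2 ratio of -0.14 ± 0.03. Of 3 epithelial names, 2 were detected on both arrays, with a summed signal of 20.9 and 22.8, and miR-200b-3p was detected with GM-CSF only, at 5.62 and 7.94. Spots well above background numbered 17 and 19 of 40 for miR-200c-3p, 5 and 4 for miR-141-3p, and 0 and 2 for miR-200b-3p. The part of these cells in the small shifts of the family was not tested, and fewer cells of a type cannot be told apart from less miRNA per cell.

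**Figure D5:**
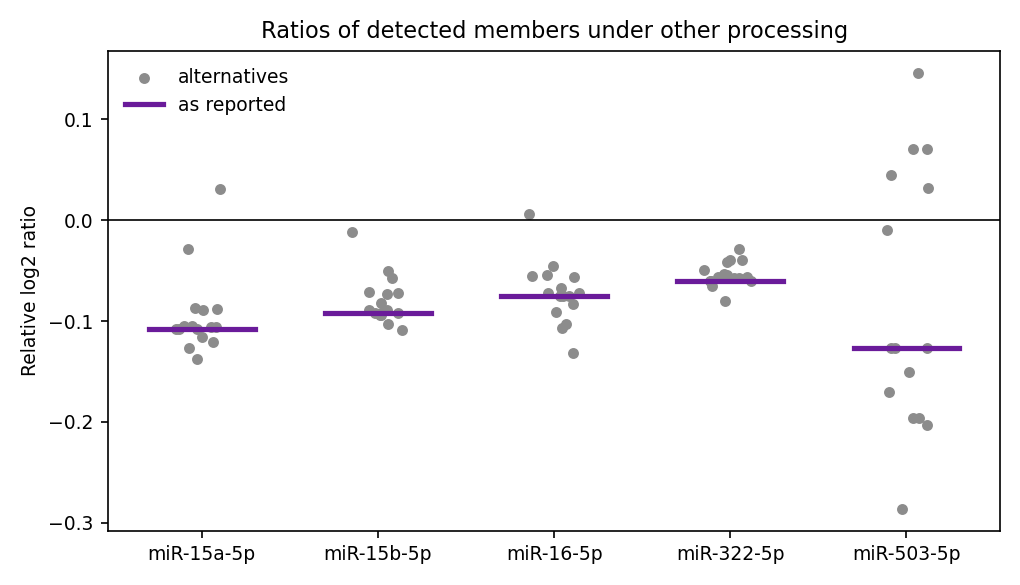
Purple bars give the relative log2 ratio of each detected member as reported, and grey points give it under other scalings, spot summaries, background corrections and spot subsets. Points of miR-15b-5p and miR-322-5p all stay below 0, 1 point each of miR-15a-5p and miR-16-5p lies above it, and those of miR-503-5p run from -0.29 to 0.15.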

How the data were processed

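miRNAs were measured on 1 single-colour Agilent array per culture. Groups follow the labelled treatment. Whether both arrays lay on 1 slide was not established here. The deposited intensity values were made, per the file headers, by Agilent Feature Extraction 10.7.1.1, with a spatially detrended background subtracted and no scaling between arrays. Saturated spots numbered 0. Replicate spots had a median variation of 8.18% on the IL-6 array and 7.42% on the other, and the number of arrays limits the precision. The table of processed values that the authors deposited is on a log2 scale. For the 308 and 301 detected miRNAs it equalled the log2 sum of the probes over 3 times their error, minus 1 constant per array (6.28 and 6.28), so its scale and direction are known and the origin of the constants is not. Its column medians, both at its floor for undetected names, were -9.60 and -9.60. Sequences came from RefSeq (GRCm38.p6).

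A level was the sum of the total probe signals. Ratios were scaled by the 75th percentile of the 292 miRNAs detected on both arrays, and their median, 0.12, was subtracted. Spot errors used spots without outlier flags. The members and lists were chosen with earlier results of these data known. Named miRNAs were every member, the listed arms, cluster neighbours, comparison families and markers, and the 2 miRNAs nearest in signal to each member. Alternatives changed the scaling (75th percentile over all miRNAs, median, none, quantile, loess with span 0.7), the spot and probe summaries, the background (normexp, offset 50), the deposited values, the detection rule, the fold and the spots used. Gene totals, probes over 3 errors, and the family without miR-503-5p were added after seeing the data. The functions were tested on simulated spots for this comparison: of 292 miRNAs, 20 of 20 changed 2.5-fold passed 2-fold and 0 of the others did. Both simulated arrays were drawn from spots of the GM-CSF only array, so spread between cultures was absent and small shifts were not covered. Python 3.11.15, numpy 2.4.6, pandas 2.3.3, matplotlib 3.10.9, R 4.3.3 and limma 3.58.1 were used. miR-424-5p, miR-497b, miR-106a-5p and miR-486-5p were not analysed here.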

Additional observations from a re-analysis of the deposited data

How the results depend on the processing

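The family median of the relative log2 ratio lay below 0 under all 17 alternatives, 14 of them other than uniform scalings. It ran from -0.10 with the brightest probe alone to -0.03 with loess. Scaling by another percentile, by the median or not at all shifts every miRNA alike and repeats the relative values by construction. Quantile normalization gave 0.031 for miR-15a-5p, and loess gave -0.012 for miR-15b-5p and 0.0064 for miR-16-5p. The value of miR-503-5p was above 0 under 5 of 15 alternatives, 12 of them other than uniform scalings. These 5 were the mean log2 spot signal (0.07), the median log2 spot signal (0.03), spots without outlier flags (0.07), odd spots (0.04) and the gene totals (0.15). Its deposited gene totals, 90.1 and 86.2, exceeded its detected probe by 79.96 and 74.1, which equalled the gene total of miR-500-3p on each array within 0.2%, and on the GM-CSF only array also that of miR-1839-5p. The causes of the other changes were not tested. The difference in share of family signal, IL-6 minus GM-CSF only, was -0.08 percentage points for miR-15b-5p and 0.28 for miR-16-5p, and became 0.66 and -0.25 from the mean linear spot signal. For miR-503-5p it was -0.010, and -0.041 with the brightest probe alone. The counts of members past 2-fold, 1.5-fold and a log2 limit of 0.32 were 0, and detection gave 4 or 5 members. No paired analysis was possible because each group has 1 array and the comparison has no test. No replicate could be left out for the same reason. The other 4 detected members are limited by the number of arrays, and miR-503-5p also by its signal over background.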
